A study of Mus musculus with 6 samples.

Results

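Mitochondrial ribosomal protein genes encode the proteins of the ribosome that works inside mitochondria. They were taken as all symbols of the RNA-seq count table that begin with Mrpl or Mrps and a number, with at least 50 counts over the peak and naive libraries. Of 42303 rows in the table, 83 had such a symbol and 81 passed the minimum, among 14367 genes that passed it. The 81 were 50 genes of the large subunit, 27 of the small subunit and 4 pseudogenes (Mrpl23-ps1, Mrpl48-ps, Mrps36-ps1 and Mrps36-ps2). Mrps36 was counted in the small subunit by its symbol, and whether its protein is part of the ribosome was not checked. The symbols that did not pass were Mrpl53 and Mrps36-ps3, both with 0 counts in either library. The 3 lowest that passed were Mrps36 with 35 peak and 23 naive counts, Mrps36-ps2 with 46 peak and 24 naive counts, and Mrps36-ps1 with 117 peak and 66 naive counts.

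The study compared sorted mouse microglia at the peak of EAE with microglia from naive mice. EAE, experimental autoimmune encephalomyelitis, models multiple sclerosis in rodents. RNA was sequenced in 1 library per condition and DNA methylation was measured by MiGS in 2 libraries per condition. MiGS enriches methylated fragments with a methyl-CpG binding domain and sequences them. Peak mice were Ccr2rfp/+::Cx3cr1gfp/+, so that 1 copy each of Ccr2 and Cx3cr1 carried a fluorescent reporter. They were immunised at 24 to 28 weeks of age with a myelin oligodendrocyte glycoprotein peptide (residues 35 to 55), and peak was defined by a daily clinical score that had stopped worsening. Naive mice were taken before induction. The labels give the C57Bl/6 background for both groups, and do not give the reporter alleles or the age of the naive mice separately. Cells of 30 mice were pooled per condition, separated on a 30% and 70% Percoll gradient and sorted with antibodies to F4/80 and CD45. The tissue is given as brain in the design text and as brain with spinal cord in the extraction protocol. The design text calls the MiGS replicates biological but does not say whether they were separate pools of mice, and the p-values below cover only library-to-library spread, which may be technical.

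Mitochondrial ribosomes translate the few proteins encoded in mitochondrial DNA, all of them core subunits of the respiratory chain and ATP synthase. Their ribosomal RNAs come from mitochondrial DNA, while every one of their proteins is encoded in the nucleus, made in the cytosol and imported. Many of the proteins have a counterpart in bacterial ribosomes, and the others are found in mitochondria alone. The large subunit joins amino acids and holds the exit tunnel, and the small subunit binds and decodes the messenger RNA.

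The promoters of these genes were CpG-rich, and 6 of them are shown as examples of the RNA and methylation values described below. Mrpl54, the member with the highest RNA ratio, had no start in the RefSeq promoter table and is not shown. Each line gives the 250 bases before the start, 5′ to 3′ on the gene's strand, as RefSeq records it for GRCm38.p6. Capitals mark matches to the words CCGGAAG (ETS family), GCATGCGC (NRF1) and AAGATGGC (YY1) on either strand. Mrps18c (chr5:100798509-100798758, plus strand), Mrpl52 (chr14:54426659-54426908, plus) and Mrpl57 (chr14:57825989-57826238, plus) were among the members with the highest RNA ratios. Mrpl43 (chr19:45006443-45006692, minus) was abundant and had near-equal levels in both libraries. Mrps6 (chr16:92058086-92058335, plus) had the lowest RNA ratio of the members. Mrps24 (chr11:5707702-5707951, minus) had the most MiGS reads in the wider promoter, all of them upstream of the bases shown.
Mrps18c: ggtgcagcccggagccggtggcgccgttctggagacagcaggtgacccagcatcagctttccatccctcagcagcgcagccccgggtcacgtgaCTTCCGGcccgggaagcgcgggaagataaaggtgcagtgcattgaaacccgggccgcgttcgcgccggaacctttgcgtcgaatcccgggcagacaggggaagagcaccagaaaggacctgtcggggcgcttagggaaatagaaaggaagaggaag
Mrpl52: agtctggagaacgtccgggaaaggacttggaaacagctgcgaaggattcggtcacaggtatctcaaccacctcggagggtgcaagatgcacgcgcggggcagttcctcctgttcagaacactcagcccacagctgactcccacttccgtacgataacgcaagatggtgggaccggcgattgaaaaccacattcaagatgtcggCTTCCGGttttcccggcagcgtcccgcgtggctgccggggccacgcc
Mrpl57: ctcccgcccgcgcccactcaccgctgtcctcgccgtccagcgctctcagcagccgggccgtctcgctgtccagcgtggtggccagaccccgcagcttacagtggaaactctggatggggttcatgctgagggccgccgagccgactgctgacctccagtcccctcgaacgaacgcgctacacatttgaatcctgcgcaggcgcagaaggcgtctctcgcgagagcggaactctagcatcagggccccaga
Mrpl43: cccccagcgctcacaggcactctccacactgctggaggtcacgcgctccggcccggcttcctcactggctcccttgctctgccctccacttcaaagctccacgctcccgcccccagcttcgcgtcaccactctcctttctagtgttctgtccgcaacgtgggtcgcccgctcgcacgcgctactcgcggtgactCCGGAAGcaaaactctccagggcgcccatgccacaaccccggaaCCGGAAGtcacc
Mrps6: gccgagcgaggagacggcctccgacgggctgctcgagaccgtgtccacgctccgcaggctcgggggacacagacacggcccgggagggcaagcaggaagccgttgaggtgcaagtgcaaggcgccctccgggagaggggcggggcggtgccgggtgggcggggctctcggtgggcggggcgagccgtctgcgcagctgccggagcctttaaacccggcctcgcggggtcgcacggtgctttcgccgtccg
Mrps24: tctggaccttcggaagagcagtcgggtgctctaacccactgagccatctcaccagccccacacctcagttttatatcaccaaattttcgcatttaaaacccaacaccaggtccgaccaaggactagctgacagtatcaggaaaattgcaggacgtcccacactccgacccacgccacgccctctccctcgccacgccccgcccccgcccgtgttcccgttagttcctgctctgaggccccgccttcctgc

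These 6 sequences held between 15 (Mrps24) and 33 (Mrps6) CpG dinucleotides. The ETS word began 156 bases before the start of Mrps18c and 47 bases before that of Mrpl52. Mrpl43 held it at 56 and again at 12 bases before the start. Mrpl57, Mrps6 and Mrps24 held none of the 3 words in the bases shown. With the 50 bases after the start included, Mrpl57 held the ETS word and Mrps24 the YY1 word, and the counts of words below include them.

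In the RNA-seq comparison, which asks how the sorted cells of the disease peak differ from naive cells, most members had somewhat more RNA in the peak library. The median log2 ratio of peak over naive was 0.39 over the 81 members (interquartile range 0.15 to 0.66, lowest -0.41, highest 1.41), beside a median of -0.00 over all 14367 genes. Of the 81 members, 70 (86.4%) had a ratio above 1 and 11 below 1, while 49.8% of all genes had a ratio above 1. The number of members above 1 was 62 with upper quartile scaling and 64 with library totals. The counting interval of the ratio lay wholly above 1 for 61 members, wholly below 1 for 4, and spanned 1 for 16. Among all 14367 genes it lay wholly above 1 for 5533, wholly below 1 for 5321, and spanned 1 for 3513. The members' scaled CPM values, counts relative to the scaled library total, summed to 1633 in the peak library, against 1278 in the naive library. With 1 library per condition these differences have no replicate check, no p-value is given, and the intervals (exact Clopper-Pearson, 95%) cover counting error only. In pooled cells, fewer cells of a type and less RNA per cell cannot be told apart.

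Differences of single members were small. At least 2-fold higher at peak was 1 member (1.23% of the 81), while 11.6% of all genes passed that fold. At least 2-fold lower were 0 members, against 9.35% of all genes. At least 1.5-fold higher were 25 members (30.9%), against 20.4% of all genes. Upper quartile scaling left 15 members (18.5%), against 17.0% of all genes, so the share then lay near that of all genes. At least 1.5-fold lower were 0 members, against 18.4% of all genes. The 81 members spread over a narrower range than all genes, with an SD of 0.34 on the log2 scale, against 1.11 for all genes. Ranked among the ratios of all genes, the members had a median percentile of 72.2 and a lowest one of 25.2 (Mrps6).

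**Figure D1:**
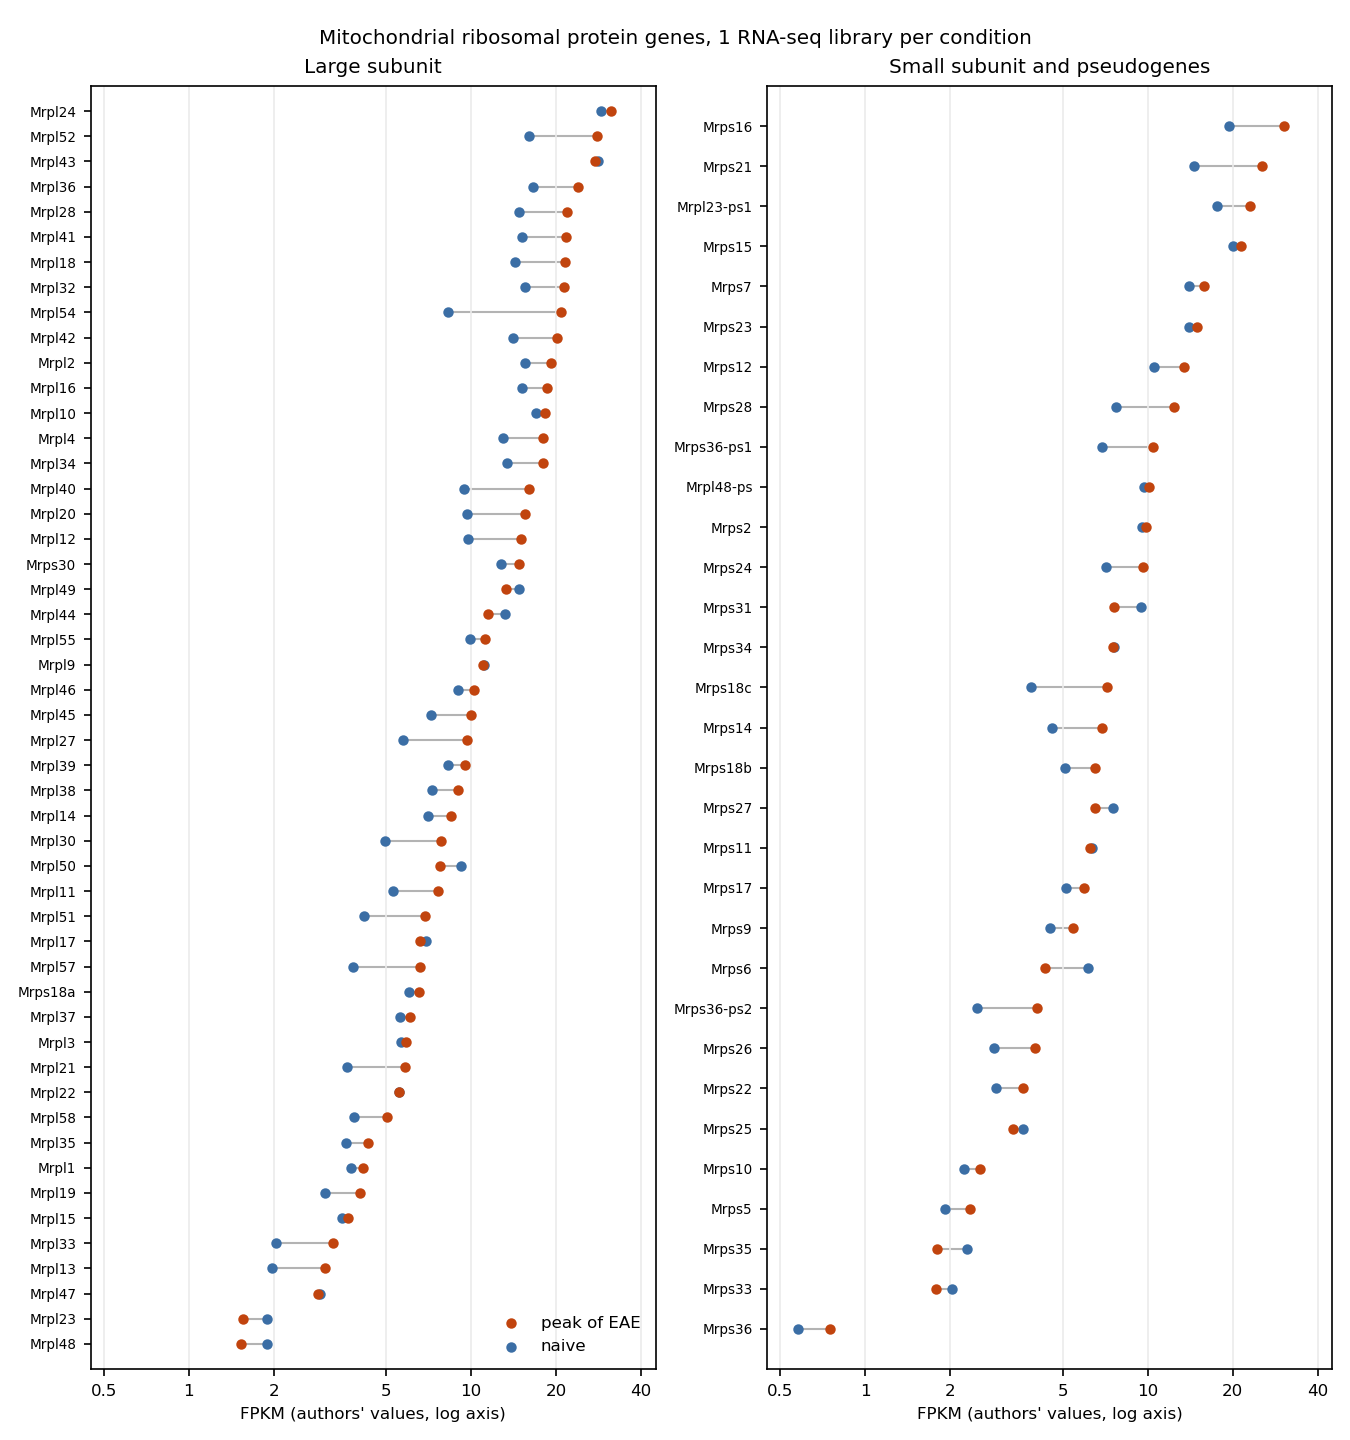
FPKM in the peak library (orange) and the naive library (blue) for each of the 81 members, on a log axis, with the large subunit on the left and the small subunit and pseudogenes on the right; a grey line joins the 2 libraries. In most rows the orange point lies to the right of the blue one, and Mrpl54 has the longest line.

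Among large subunit genes the median log2 ratio was 0.40, with 45 of 50 above 0. At least 1.5-fold higher were 18 (36%), against 20.4% of all genes. Mrpl54, a large subunit protein without bacterial counterpart (gene at chr10:81264722-81266926), had 626 counts (20.8 FPKM) in the peak library, against 214 counts (8.29 FPKM) in the naive library. Its 2.66-fold ratio (counting interval 2.28 to 3.12) was the highest of the members and lay at percentile 92.4 of all genes. Its interval overlaps that of the small subunit gene Mrps18c (1.604 to 2.46). Overlap alone does not decide the order of these 2, and their difference was not tested. The next large subunit genes were close to each other in ratio. Mrpl52 had 1132 peak counts (27.9 FPKM), against 554 naive counts (15.97 FPKM), 1.86-fold higher (interval 1.68 to 2.06). Mrpl57, once called Mrp63, had 559 peak counts (6.59 FPKM), against 277 naive counts (3.82 FPKM), 1.83-fold higher (interval 1.59 to 2.13). Mrpl40, which in humans lies in the region lost in 22q11 deletion, had 710 peak and 358 naive counts, 1.80-fold higher (interval 1.59 to 2.05). The intervals of Mrpl52, Mrpl57 and Mrpl40 each hold the ratios of the other 2, so the order among them is not resolved by these counts.

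Ratios also spread within single sites of the large subunit. At the stalk, where translation factors bind, Mrpl11 and Mrpl12 had log2 ratios of 0.62 and 0.72, and Mrpl10, the protein that carries Mrpl12, had 0.19. Around the exit tunnel, Mrpl22, Mrpl24 and Mrpl23 had log2 ratios of 0.09, 0.21 and -0.19, and Mrpl45, which helps hold the ribosome at the inner membrane, had 0.56. In the central protuberance Mrpl18, Mrpl38, Mrpl46 and Mrpl48 had log2 ratios of 0.68, 0.40, 0.28 and -0.22. The values of Mrpl23 and Mrpl48 are uncertain. With the counts of their pseudogenes added, the log2 ratios were 0.34 and -0.08. Mrpl58, a peptidyl-tRNA hydrolase built into the subunit, had 614 counts at peak, against 400 in naive cells (log2 ratio 0.48). These sites were picked as examples with the values known, and no site was tested.

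Mrpl24 and Mrpl43, the large subunit genes with the highest mean FPKM of the 2 libraries, differed little. Mrpl24, the member with the highest FPKM in either library, had 31.3 FPKM (2584 counts) in the peak library, against 28.9 FPKM (2037 counts) in the naive library, a log2 ratio of 0.21. Mrpl43 had 27.5 FPKM at peak, against 28.1 FPKM in naive cells, with a log2 ratio of 0.06 from counts and an interval that spans 1 (0.96 to 1.13). Its direction turned with upper quartile scaling (log2 ratio -0.08), with library totals (-0.03) and with the authors' FPKM (-0.03). Mrpl43 overlaps the gene of the mitochondrial DNA helicase Twnk on the other strand over 780 bases, and Twnk had 583 peak and 661 naive counts. The labels and headers do not say whether reads were counted by strand, so values of overlapping genes are uncertain.

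**Figure D2:**
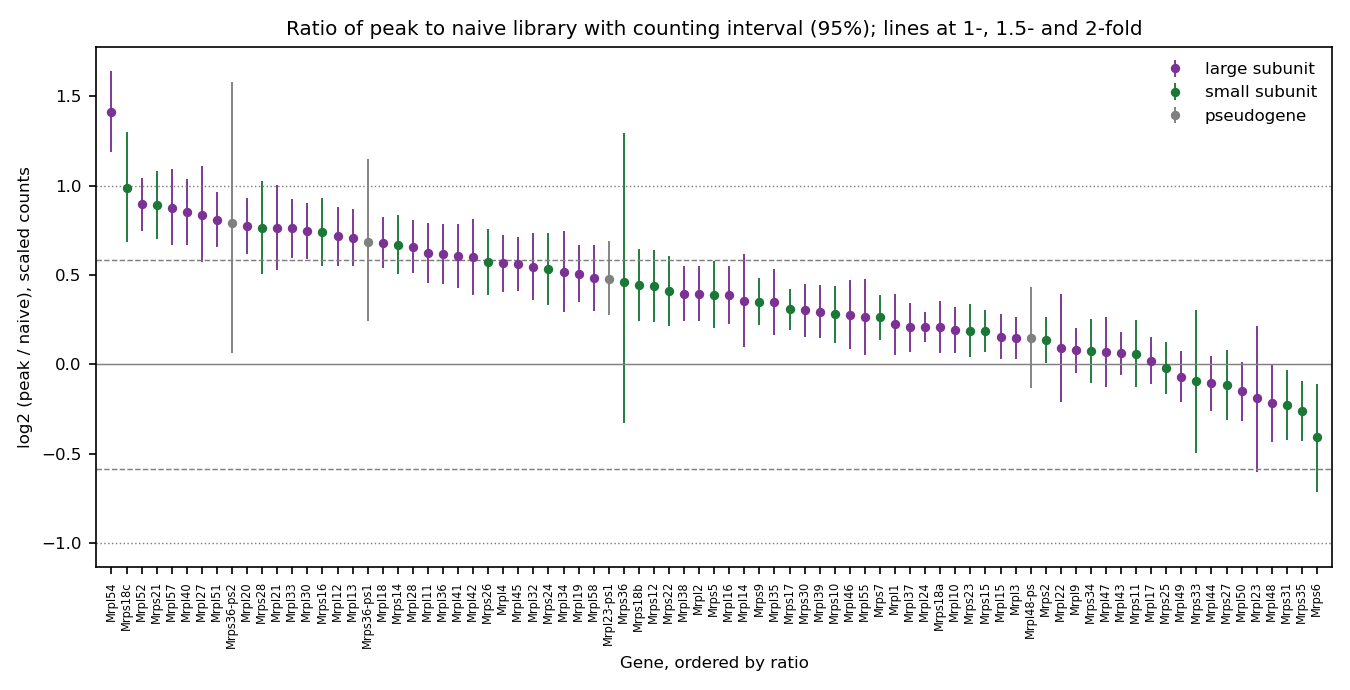
Log2 ratio of peak over naive scaled counts for each member, ordered from high to low, with exact 95% counting intervals; colours give the subunit, dashed and dotted lines mark 1.5-fold and 2-fold. Of the 81 points, 70 lie above 0 and Mrpl54 lies above the upper 2-fold line.

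Among small subunit genes the median log2 ratio was 0.31, with 21 of 27 above 0. At least 1.5-fold higher were 5 (18.5%), near the 20.4% of all genes. Mrps18c, one of the MRPS18 paralogs and the counterpart of bacterial S18, had 283 counts (7.19 FPKM) in the peak library, against 130 counts (3.86 FPKM) in the naive library. Its ratio was 1.98-fold (interval 1.604 to 2.46), just under 2-fold. Mrps18b, another paralog, had a log2 ratio of 0.44, and Mrps18a, which is built into the large subunit, had 0.21. Mrps21, counterpart of bacterial S21, had 689 peak counts (25.5 FPKM), against 338 naive counts (14.6 FPKM), 1.85-fold higher (interval 1.63 to 2.12). Mrps16, whose human gene is mutated in a combined respiratory chain deficiency, had 631 peak counts (30.5 FPKM), against 344 naive counts (19.4 FPKM), 1.67-fold higher (interval 1.46 to 1.91). Mrps15 had a naive level close to that of Mrps16 and differed less, with 21.4 FPKM (1327 counts) at peak, against 20.1 FPKM (1063 counts) in naive cells (log2 ratio 0.18, interval 1.05 to 1.23 as a fold).

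The 11 members below 0 were 5 large and 6 small subunit genes, and 9 of the 11 have no bacterial counterpart. Mrps6, counterpart of bacterial S6, had 167 counts (4.34 FPKM) in the peak library, against 202 counts (6.13 FPKM) in the naive library, the lowest log2 ratio of the members at -0.41 (fold 0.753, interval 0.609 to 0.928). Mrps6 shares 29138 bases on the same strand with Slc5a3, the sodium and myo-inositol cotransporter gene, which had 1085 peak and 2028 naive counts. Reads from their shared span can be given to either gene by counting. Mrps35 had 568 peak and 620 naive counts (log2 ratio -0.26), and Mrps31 had 428 peak and 456 naive counts (-0.23). Mrpl48 had 342 peak and 362 naive counts (-0.22), and Mrpl50 had 601 peak and 607 naive counts (-0.15). The intervals of Mrps6, Mrps35, Mrps31 and Mrpl48 were the 4 that lay wholly below 1, with the upper bound of Mrpl48 at 0.999. Mrpl50 had an interval of 0.804 to 1.01, which spans 1.

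Ratios above 1 were found both in members with and in members without a bacterial counterpart. Of 46 with a counterpart, 44 had a ratio above 1, with a median log2 ratio of 0.39. Of 31 found in mitochondria alone, 22 had a ratio above 1, with a median of 0.29. In the large subunit the medians were 0.45 with a counterpart (n = 30) and 0.35 without (n = 20). In the small subunit they were 0.37 with a counterpart (n = 16) and 0.07 without (n = 11), and 0 of those 11 reached 1.5-fold. The difference between these classes was not tested.

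Pseudogene rows had counts beside 3 of the genes, and how reads that match both were counted is not stated, so sums are given too. Mrpl23, an exit tunnel protein, had 101 peak and 105 naive counts (1.55 FPKM at peak, against 1.89 FPKM in naive cells, log2 ratio -0.19). Its pseudogene Mrpl23-ps1 had 489 peak and 319 naive counts (23.1 FPKM at peak, against 17.6 FPKM in naive cells, log2 ratio 0.48), the sixth highest member by the mean FPKM of the 2 libraries. Of their summed counts, 17.1% at peak and 24.8% in naive cells were in the row of Mrpl23 itself, and the sum had a log2 ratio of 0.34. For Mrpl48 and Mrpl48-ps the sum had a log2 ratio of -0.08. For Mrps36 and its 3 pseudogene rows the sum was 198 peak and 113 naive counts, a log2 ratio of 0.67, with 17.7% of the peak and 20.4% of the naive counts in the row of Mrps36. Mrps36 alone had a log2 ratio of 0.46 with an interval from 0.795 to 2.45 as a fold. The direction of Mrpl23 turned when its pseudogene was added, so Mrpl23, Mrpl48 and Mrps36 are uncertain. The 4 pseudogenes had a median log2 ratio of 0.58.

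Some other members overlap genes with large RNA differences. Mrpl57 overlaps Ska3, a kinetochore gene, over 64 bases on the other strand, and Ska3 had 250 peak and 11 naive counts. Mrpl27 overlaps Eme1, a nuclease subunit gene of DNA repair, over 67 bases on the other strand, and Eme1 had 233 peak and 11 naive counts. In all, 25 members overlap another annotated gene, and 20 of them a protein-coding one. Mrpl54, Mrps18c, Mrpl52, Mrps21 and Mrpl40 overlap none.

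The shortest members had the highest median ratio. Length here is the gene length implied by the authors' counts and FPKM. In the 26 shortest genes (566 to 1398 bp) the median log2 ratio was 0.58. At least 1.5-fold higher were 13 of the 26 (50%), against 33.8% of all genes in that length range. In the 26 genes of middle length (1466 to 2882 bp) it was 0.20, and in the 25 longest genes (2919 to 8631 bp) it was 0.31. All genes of the same length ranges had medians of 0.26, 0.11 and -0.06, each below the median of the members in that range. Over the 77 members without pseudogenes, Spearman's rho between length and log2 ratio was -0.30, and over all 14367 genes it was -0.22. These are descriptions across genes of the same 2 libraries.

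**Figure D3:**
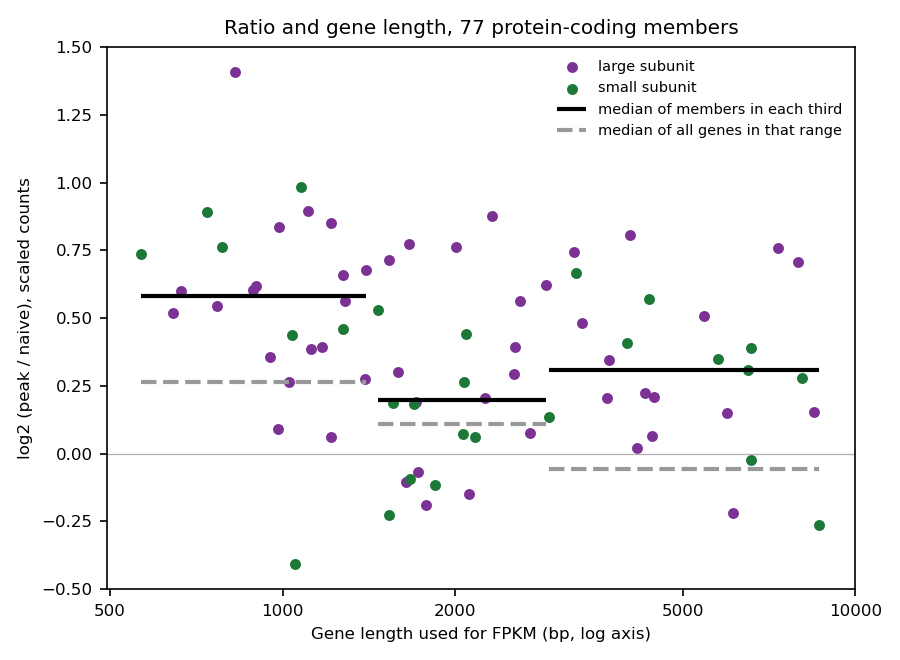
Log2 ratio of peak over naive against gene length (bp, log axis) for the 77 members that are not pseudogenes; black lines are the medians of the members in 3 length classes, grey dashed lines those of all genes in the same length range. The black lines lie at 0.58, 0.20 and 0.31 and the grey lines at 0.26, 0.11 and -0.06.

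The members stood between all genes and 2 related groups. Cytosolic ribosomal protein genes (n = 85) had a median log2 ratio of 0.83, and 32 of them (37.6%) were at least 2-fold higher, against 11.6% of all genes. Nuclear-encoded respiratory chain genes (n = 76) had a median of 0.63, with 9 (11.8%) at least 2-fold higher and 1 lower. Both groups were shorter than the members without pseudogenes, with median lengths of 1384 and 1490 bp, against 1848 bp.

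Genes that serve the mitochondrial ribosome had lower medians than the members, except for a list of 6 further genes. That list held 5 ribosomal proteins and the insertase Oxa1l, an inner membrane protein that is no part of the ribosome. In it the small subunit GTP-binding protein Dap3 had 1198 peak and 709 naive counts (log2 ratio 0.62), Chchd1 had 0.65 and Aurkaip1 0.73. Gadd45gip1 had 0.31, Ptcd3 0.18 and Oxa1l -0.13, the last with 1712 peak and 1705 naive counts. The median of the 6 was 0.46, and 0 reached 2-fold. The 15 mitochondrial translation factors had a median of 0.08, again with 0 at 2-fold in either direction. Among them the elongation factor gene Tufm had 295 peak and 177 naive counts (0.60), the methionine aminopeptidase gene Metap1d had 0.81, and the initiation factor gene Mtif3 had 712 peak and 951 naive counts (-0.55). The 27 genes of ribosome assembly and rRNA modification also had a median of 0.08, with 0 at 2-fold. C1qbp, a matrix protein needed for mitochondrial translation, had a log2 ratio of 0.70, Fastkd2, which binds the large rRNA, had 0.42, and Tfb1m, which methylates the small rRNA, had -0.43.

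Genes of mitochondrial DNA expression did not follow the members either. The 14 genes of transcription and replication had a median log2 ratio of -0.08. Slirp, which stabilises mitochondrial messenger RNAs, had 991 peak and 369 naive counts (2.44-fold higher), and was the 1 gene past 2-fold. Mgme1, an exonuclease of mitochondrial DNA, had 799 peak and 1283 naive counts (log2 ratio -0.82), and the helicase gene Twnk had -0.32. Of 16 regulators of mitochondrial biogenesis (median 0.19), the coactivator Ppargc1b had 230 peak and 101 naive counts (2.07-fold higher) and Ppargc1a had 26 peak and 80 naive counts (log2 ratio -1.74). Ppargc1b fell below 2-fold with library totals, with upper quartile scaling and with the authors' FPKM. Atf5, a factor of the mitochondrial stress response, had a log2 ratio of 0.97. Nrf1 had -0.33, Gabpa -0.09 and Yy1 0.06, the factors whose words were searched in the promoters.

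**Figure D4:**
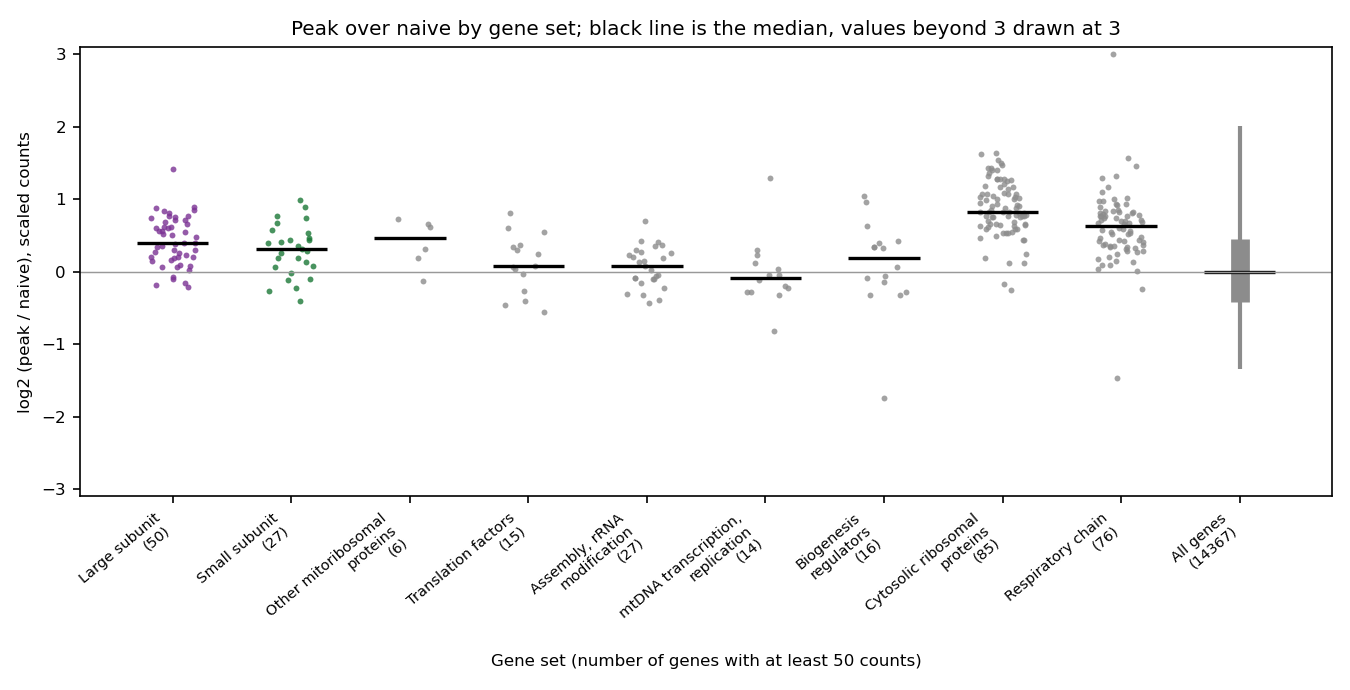
Log2 ratio of peak over naive scaled counts for single genes (points) in each gene group, with the group median as a black line; for all 14367 genes the box is the interquartile range and the thin line runs from percentile 5 to 95. The large and small subunit medians (0.40 and 0.31) lie above those of translation factors and assembly genes (0.08 each) and below those of cytosolic ribosomal proteins (0.83) and the respiratory chain (0.63).

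Marker RNA of several cell types also differed between the libraries. Of 14 microglia markers, 13 were measured, and 12 of the 13 had a lower level in the peak library (median log2 ratio -0.78, summed CPM 29865 at peak, against 44717 in naive cells). The exception was Aif1, 1.73-fold higher at peak. Of 11 monocyte markers, 10 passed the minimum and all 10 were at least 1.5-fold higher at peak (median 3.40), and the 11 summed to 2438 CPM at peak, against 476 in naive cells. No monocyte marker was at 0 in either library. The lists hold Cx3cr1 (0.527-fold) and Ccr2 (1.78-fold), the genes with a reporter in 1 copy in peak mice. The reporter alleles of the naive mice are not given, so genotype and disease cannot be told apart for Cx3cr1 and Ccr2. Proliferation markers were higher in 10 of 10, with 911 CPM at peak, against 79.5 in naive cells. Of 8 T cell markers 3 passed the minimum, and the 8 summed to 8.97 CPM at peak, against 3.47 in naive cells, and Cd3e, Cd3g and Cd8a had 0 naive counts. Of 6 astrocyte markers 4 were lower at peak and 2 higher, Gfap (2.63-fold) and Aldh1l1 (1.31-fold), with a median of -1.38. All 6 endothelial markers were lower (median -1.29). The part of these shifts in the ratios of the mitochondrial ribosomal protein genes was not tested.

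MiGS asked whether methylation differed at the same genes. The libraries had 43970332 and 35285601 reads summed over 50 bp windows at peak, against 30424742 and 36501153 in naive cells, and a read is counted in each window it touches. Naive replicate 2 stood apart, with a mean signal of 25.4 per kb in the first 250 bases of all protein-coding genes, against 8.95 and 13.2 in the peak libraries and 12.2 in the other naive library. The share of genes with reads there was alike, 10.67% in naive replicate 2, against 11.46% and 10.16% at peak and 10.25% in naive replicate 1. Windows over 2000 reads were set to 0 for these values.

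The starts of these genes were almost free of MiGS reads in all 4 libraries. Of 68 members with a start in the RefSeq promoter table, 60 (88.2%) had 0 reads from 1000 bp before to 500 bp after the start, against 65.0% of 16452 protein-coding genes. Within 250 bp before and 50 bp after the start, 67 of 68 (98.5%) had 0 reads, against 88.2% of protein-coding genes. The exception was Mrpl45, with 3 reads there, all in naive replicate 2. From 0 to 500 bp downstream the mean signal of the members was 0 in each of the 4 libraries. The protein-coding genes were not filtered by RNA counts or matched to the members for CpG content. MiGS counts captured fragments and gives no methylation level per site.

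**Figure D5:**
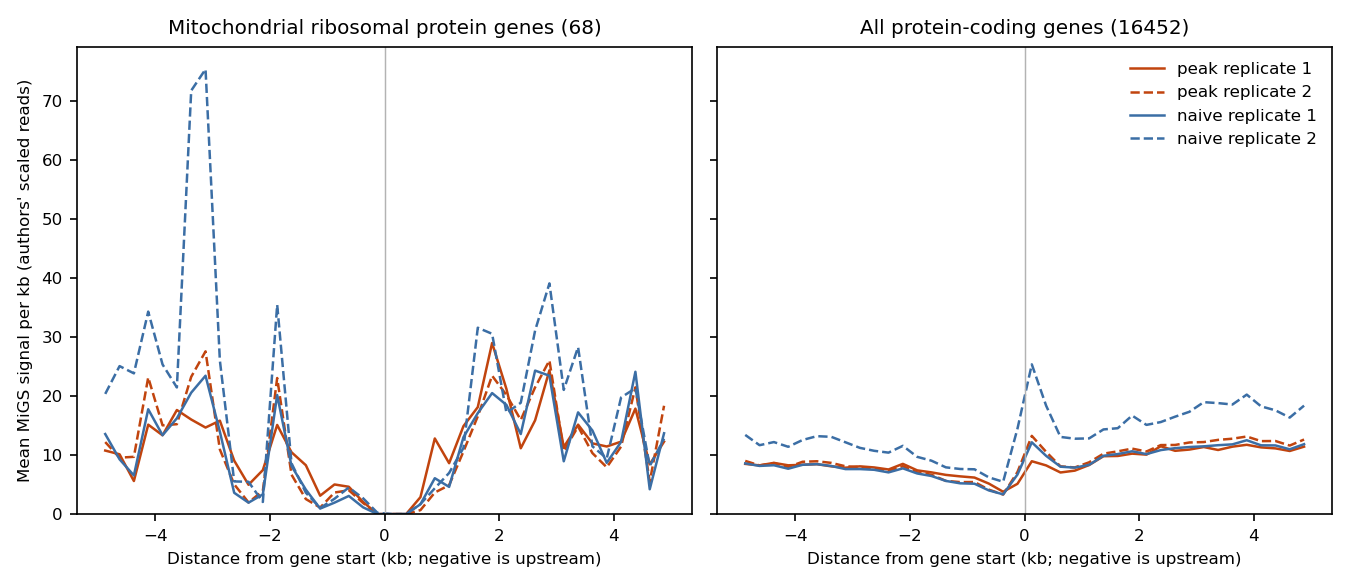
Mean MiGS signal per kb (authors' scaled reads) in 250 bp bins by distance from the gene start, for 68 members (left) and 16452 protein-coding genes (right), with 1 line per library (orange peak, blue naive). The members' lines fall to 0 around the start in all 4 libraries, where the means of all protein-coding genes rise, most of all in naive replicate 2. Windows over 2000 reads were set to 0.

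The read-poor starts lay in CpG-rich sequence. The promoter sequences of the 68 members (300 bp) had a median GC content of 58.2% and a median of 21 CpG sites (7 to 39), against 56.3% and 13 sites in 17486 protein-coding genes. The ratio of observed to expected CpG was 0.82 in the members, against 0.58 in protein-coding genes.

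The 8 members with promoter reads had nearly all of them upstream, 674 of 677 reads in bases further than 250 from the start. Mrps24 had the most, 381 reads. Its promoter signal was 49.7 and 65.9 per kb in the peak libraries, against 49.2 and 81.3 per kb in the naive libraries, so the groups overlap. The log2 difference was -0.14 ± 0.58 (SE, n = 2 each, adjusted p = 0.96 by limma), and its sign turned when peak replicate 1 or naive replicate 2 was left out. Mrps33 had 19.9 and 21.8 per kb at peak, against 8.33 and 1.55 per kb in naive cells, with every peak value above both naive ones. How many of all promoters separate in this way was not counted. The log2 difference of Mrps33, 2.16 ± 1.03 (SE), did not pass the test (adjusted p = 0.87 by limma). Mrps21 had 14.9 and 4.90 per kb at peak, against 0 and 3.097 per kb in naive cells (log2 difference 2.26 ± 1.58, adjusted p = 0.87). Mrps22 had 24.3 and 7.62 per kb at peak, against 5.30 and 9.29 per kb in naive cells, and overlapped (0.87 ± 0.998, adjusted p = 0.89). With 1 library left out these differences ran from 1.23 to 3.097 for Mrps33, 1.24 to 3.28 for Mrps21 and 0.099 to 1.65 for Mrps22, and none passed. Mrps21 fell under the read minimum without peak replicate 1 and has no value there.

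No member promoter passed the test, and neither did any other. Of 7246 promoters with at least 20 reads, 0 passed an adjusted p of 0.05 by limma (0%), 383 had an unadjusted p under 0.05, and edgeR and DESeq2 on the recovered reads also called 0. Only 5 members had enough reads to enter, so the test does not cover the other members.

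Gene bodies held more signal. Of 76 members with a body longer than its excluded ends, 70 had reads and 64 had at least 20, with a mean signal of 1.21 to 125 per kb (median 16.8). Mrps17 had the highest signal, 55.2 and 127 per kb at peak, against 140 and 177 per kb in naive cells. Mrps7 followed with 65.7 and 63.1 per kb at peak, against 85.0 and 108 per kb in naive cells. Both had lower values in each peak library than in either naive library. They were picked with their values known, and the share of all bodies separated in this way was not counted. Neither passed the test (log2 differences -0.90 ± 0.59 and -0.56 ± 0.43, SE, adjusted p = 0.97 by limma for both).

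Of 26751 gene bodies tested, 3 passed (0.0112%), all higher at peak, and 0 of the 64 members were among them. At an unadjusted p under 0.05 by limma there were 3 of the 64 members and 972 of all 26751 bodies. The members' share was thus close to that of all bodies. After adjustment, edgeR and DESeq2 called 0 bodies. The 3 members were Mrpl23, Mrpl28 and Mrps16. Mrpl23 had 9.10 and 5.05 per kb at peak, against 2.34 and 0.798 per kb in naive cells (log2 difference 1.67 ± 0.54, adjusted p = 0.97). Mrpl28, a large subunit protein with a bacterial counterpart, had 34.5 and 15.1 per kb at peak, against 13.4 and 2.20 per kb in naive cells (1.81 ± 0.71, adjusted p = 0.97). Mrps16 had 31.6 and 10.4 per kb at peak, against 9.64 and 0 per kb in naive cells (2.56 ± 1.02, adjusted p = 0.97). In all 3 the peak and naive values did not overlap. They were picked by their small p, so this separation was no further evidence, and its share over all bodies was not counted. Peak replicate 1 was the highest library in each.

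In the other direction the smallest p belonged to Mrps14, Mrpl3 and Mrpl55. Mrps14 had 15.3 and 25.6 per kb at peak, against 29.9 and 34.6 per kb in naive cells (log2 difference -0.67 ± 0.37). Mrpl3 had 19.3 and 19.5 per kb at peak, against 22.7 and 49.4 per kb in naive cells (-0.76 ± 0.42). Mrpl55 had 24.7 and 39.7 per kb at peak, against 42.4 and 62.2 per kb in naive cells (-0.70 ± 0.40). All 3 had an adjusted p of 0.97. Over the 64 members 36 differences were positive and 28 negative, with a median of 0.08, beside a median of -0.07 over all bodies. Mrpl54, the member with the largest RNA difference, had body signal of 31.6 and 28.5 per kb at peak, against 13.2 and 25.1 per kb in naive cells (0.69 ± 0.39, adjusted p = 0.97).

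The ETS, YY1 and NRF1 words, which the choice of genes did not use, were more frequent in member promoters than in all protein-coding promoters. The latter were not filtered by RNA counts and had fewer CpG sites (median 13, against 21 in the members). The words were not compared with promoters of like RNA level or CpG content. In the 300 bp around the start, on both strands, the ETS word CCGGAAG was in 23 of 68 members (33.8%), against 11.9% of 17486 protein-coding promoters. The YY1 word AAGATGGC was in 12 (17.6%), against 3.21%, and the NRF1 word GCATGCGC was in 8 (11.8%), against 3.61%. The last bases of the ETS word can be the first of the YY1 word, and 0 member promoters held the pair so joined. The CCAAT box (CCAAT) was as frequent as elsewhere, 38.2% of members and 39.2% of all. The TATA box (TATAAA) was in 4 members (5.88%), against 13.3% of all. The E-box CACGTG was in 5 members (7.35%, against 7.92%), the cAMP response element TGACGTCA in 2 (2.94%, against 2.33%), and the interferon response core (TTTC, any 2 bases, TTTC) in 3 (4.41%, against 3.40%).

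RNA ratios of members with and without these words are given as medians. Members with the ETS word had a median log2 ratio of 0.48, against 0.30 without it. With the NRF1 word the median was 0.24, against 0.37 without, and with the YY1 word it was 0.30, against 0.37 without. The 3 members with the interferon response core, Mrpl20, Mrps18c and Mrps21, had a median of 0.89, against 0.35 without. A match is a run of letters and not a binding site, and these differences were not tested.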

How the data were processed

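Per the labels' protocols, RNA libraries were stranded and depleted of ribosomal RNA. The deposited table holds raw counts per Ensembl gene, and the FPKM values beside them are the authors' own. The submitters' processing notes name build mm10 and the tools edgeR, featureCounts, TopHat and Bowtie2, without role or version. Totals were 36561934 peak and 31282093 naive counts. The 506 rows without a symbol (0.0647% of peak and 0.0573% of naive counts) could not be members. They stayed in the totals and, where they passed the count minimum, among all genes. TMM scaling (edgeR 4.0.16) was applied and libraries were compared by the log2 ratio, after adding 0.5 to counts.

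MiGS was deposited as signal in 50 bp windows, listed only where it is above 0. Each library's values are multiples of 1 lowest value (100% whole within a tolerance of 0.001), so whole reads could be recovered. Windows not listed were taken as 0. As these deposited signals are not counts, limma 3.58.1 was the test, with a variance trend on log2(signal per kb + 1), two-sided, with Benjamini-Hochberg adjustment over all genes with at least 20 reads. Fold changes on that scale understate low genes. edgeR's quasi-likelihood test and DESeq2 1.42.0 on recovered reads were alternatives. Promoters ran from 1000 bp before to 500 bp after the RefSeq start (GRCm38.p6, same build) for genes with a listed strand. Gene bodies left out 500 bp at both ends. Chromosomes 1 to 19 were analysed.

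The members and gene lists were chosen with earlier results of these data known. Members were named by rule: the 6 highest and 6 lowest RNA ratios, the 6 highest FPKM, those past 2-fold, those next to the count minimum, the largest ratios in each list, and the smallest p and highest signal in MiGS. Members given as examples of ribosome sites, the Mrps18 paralogs, those with body signal at the top and those overlapping Ska3 and Eme1 were chosen after their values were seen. Scripts were tested on simulated data. Tools also included R 4.3.3, Python 3.11.15 and scipy 1.17.1.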

Additional observations from a re-analysis of the deposited data

How the results depend on the processing

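Alternatives covered scaling, the added count, the count or read minimum, the FPKM ratio, the pseudocount, leaving out each MiGS library, and count tests on recovered reads. The median log2 ratio of the members was above that of all genes by 0.33 to 0.43 in every RNA-seq setting. A change of scaling shifts all genes nearly alike, so this gap cannot test the scaling. The members' own median was 0.39 with TMM, 0.30 with library totals and 0.25 with upper quartile scaling. Upper quartile scaling moved the median of all genes by -0.14 and left 15 members at least 1.5-fold higher (18.5%, against 17.0% of all genes). With a minimum of 10 counts, or none, 2 members were at least 2-fold higher.

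In MiGS, higher promoters numbered 0 to 1 and lower ones 0 when each library was left out. Higher gene bodies then numbered 0 to 52 and lower ones 0 to 50, with 52 and 50 without peak replicate 1. Higher bodies numbered 0 with a pseudocount of 5, 0 with at least 100 reads, 1 with no filter, 0 by edgeR and 0 by DESeq2. The Mrps24 promoter difference ran from -0.50 to 0.21 when each library was left out, with 0.06 without peak replicate 1 and 0.21 without naive replicate 2. The cause was not tested.

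Samples share replicate numbers, but with 2 pairs the numbers do not show pairing (correlation of deviations 0.19 at promoters and 0.31 in bodies). With a replicate block, limma called 33 higher and 312 lower promoters and 600 higher and 973 lower bodies, and edgeR called 4 and 105 promoters and 95 and 975 bodies. Member bodies called with the limma block were 2 higher, Mrpl28 (1.81) and Mrps16 (2.56), and 1 lower, Mrps17 (-0.90). With the edgeR block they were 0 higher and 1 lower, Mrps28 (-0.58), so no member was called by both.

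Single RNA libraries, and 2 MiGS libraries per condition, limit what can be called.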
